A study of Homo sapiens with 4 samples.

Results

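Glycolysis and hypoxia response genes were compared between 2 lung cancer cell lines, PC9 and MTAC-P, on 2 arrays per line. The members were 37 genes taken by symbol: 16 glycolytic enzymes, 4 kinase genes that regulate the flow of carbon through the pathway, and 17 genes of the hypoxia-inducible factor (HIF) pathway. A probe set naming the gene alone was found for 36 of them, among 18239 genes in all; CA9 had no such probe set, and its expression is not analysed here. The brightest probe set stood for each gene, and all 36 passed the filter on dim genes, a mean log2 value of at least 4.14 (the dim value). All values are log2 expression values, and differences are MTAC-P minus PC9.

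PC9 is a human lung adenocarcinoma line that carries an activating mutation of the receptor EGFR. MTAC-P is labelled as a resistant lung cancer line raised with mild exposure to a tyrosine kinase inhibitor (TKI); the inhibitor, its dose and the parent line are not named, nor whether drug was present at harvest. Both lines were grown in DMEM with serum, and no oxygen level is given, so neither line is labelled as hypoxic. The duplicates of a line are not described as separate cultures, and p-values measure the spread between these arrays, which may be technical. Each line is 1 cell population, so a difference between lines cannot be told apart from one between 2 populations of any other history.

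Glycolysis splits glucose into pyruvate in the cytosol, and lactate dehydrogenase turns pyruvate into lactate when it is not oxidised in mitochondria. HIF-1 and HIF-2 are pairs of an oxygen-regulated alpha subunit, encoded by HIF1A or EPAS1, and a beta subunit encoded by ARNT. With oxygen present, prolyl hydroxylases of the EGLN family mark the alpha subunit for destruction, so HIF is controlled largely at the protein level, which an RNA array does not measure. Many glycolytic genes are HIF targets, and many cancer lines keep glycolysis high with oxygen present.

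HIF binds DNA at hypoxia response elements, whose core is ACGTG or GCGTG. The 250 bases before 1 listed start are shown for each of 6 members that stand for the patterns described below. PGK1 and LDHA stand for the glycolytic enzymes, and PFKFB4 and BNIP3 for regulators and targets with a higher mean in MTAC-P. KDM3A and P4HA1 stand for targets with a lower mean. LDHA and KDM3A each have a further listed start that is not shown. That of LDHA holds 1 GCGTG and no ACGTG, and that of KDM3A holds 1 GCGTG. The sequences are from RefSeq, build GRCh38.p14, and are written 5′ to 3′ on the strand of the gene. Capitals mark the core on either strand, so that a core on the opposite strand reads CACGT or CACGC.

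PGK1, chrX:78103998-78104247, plus strand: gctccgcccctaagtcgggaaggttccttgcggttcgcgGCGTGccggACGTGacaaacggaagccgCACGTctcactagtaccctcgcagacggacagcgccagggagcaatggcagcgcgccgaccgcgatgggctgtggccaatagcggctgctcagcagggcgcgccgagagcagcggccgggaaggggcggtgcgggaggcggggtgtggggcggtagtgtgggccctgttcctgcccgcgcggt
LDHA, chr11:18394313-18394562, plus strand: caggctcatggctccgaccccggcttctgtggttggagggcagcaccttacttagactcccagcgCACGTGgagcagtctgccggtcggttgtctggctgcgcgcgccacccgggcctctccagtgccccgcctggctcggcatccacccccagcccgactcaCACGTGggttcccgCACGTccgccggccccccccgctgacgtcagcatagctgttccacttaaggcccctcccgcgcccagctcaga
PFKFB4, chr3:48556804-48557053, minus strand: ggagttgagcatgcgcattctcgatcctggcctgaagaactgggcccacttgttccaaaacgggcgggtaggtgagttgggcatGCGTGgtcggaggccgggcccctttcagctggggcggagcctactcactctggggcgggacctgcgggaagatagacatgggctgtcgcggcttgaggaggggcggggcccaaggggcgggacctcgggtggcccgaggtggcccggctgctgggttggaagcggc
BNIP3, chr10:131981924-131982173, minus strand: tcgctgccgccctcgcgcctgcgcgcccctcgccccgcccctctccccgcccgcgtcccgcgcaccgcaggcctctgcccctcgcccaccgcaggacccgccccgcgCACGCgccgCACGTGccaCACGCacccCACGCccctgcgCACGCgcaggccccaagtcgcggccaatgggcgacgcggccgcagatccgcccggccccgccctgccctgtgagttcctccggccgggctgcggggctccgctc
KDM3A, chr2:86441121-86441370, plus strand: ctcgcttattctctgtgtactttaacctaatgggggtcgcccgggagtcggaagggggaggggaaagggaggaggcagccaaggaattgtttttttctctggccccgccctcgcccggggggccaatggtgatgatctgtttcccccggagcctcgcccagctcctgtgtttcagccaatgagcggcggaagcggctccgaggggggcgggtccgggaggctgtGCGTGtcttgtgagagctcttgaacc
P4HA1, chr10:73096867-73097116, minus strand: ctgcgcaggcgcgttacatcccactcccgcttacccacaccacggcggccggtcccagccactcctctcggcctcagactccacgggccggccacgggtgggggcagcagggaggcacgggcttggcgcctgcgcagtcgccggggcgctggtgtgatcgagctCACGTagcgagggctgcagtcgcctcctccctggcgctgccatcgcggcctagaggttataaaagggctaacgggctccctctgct

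Of the 6, LDHA and BNIP3 also hold CACGTG, which carries ACGTG on both strands and is the E-box that MYC binds. Among members with an entry, CA9 included, 29 of 34 genes (85.3%) had either core before at least 1 listed start, against 60.8% of 12036 tested genes with an entry. No core was found for LDHB, PGAM1, PKM, EGLN3 and P4HA2, while all 6 members shown above hold one. The members had 1.76 starts per gene and the tested genes 1.44, so the members had more sequence searched. Counted by start, 24 of 60 member promoters (40.0%) held ACGTG against 21.1% for tested genes and 18.5% of all 35116 promoters, while GCGTG was in 36.7% of member promoters against 40.4% and 32.2%. By gene, a core was found for 13 of 14 members whose MTAC-P arrays both lay above both PC9 arrays, for 6 of 8 whose MTAC-P arrays both lay below, and for 9 of 11 whose arrays overlapped. By start the order was different, at 17 of 33 promoters (51.5%), 7 of 11 (63.6%) and 12 of 15 (80.0%), the first set having 2.36 starts per gene against 1.38 and 1.36. The match is a description of these letters and no measure of binding.

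None of the 36 members passed the test between the lines (limma, adjusted p over 14970 genes, threshold 0.05), against 3 of all tested genes (0.0200%). At an unadjusted p under 0.05 there were 4 members (11.1%), against 18.9% of tested genes. The 2 higher in MTAC-P were PKM and PFKFB4, against a background of 7.76%, and the 2 lower were HIF1A and CA12, against a background of 11.1%. No member's means were 2-fold apart, as were those of 2.02% of tested genes. Differences below are therefore given as values that did not pass, and the member shares at an unadjusted p lie at or under the background. With 2 arrays per line the smallest 2-sided p of an exact permutation test is 0.333, so no such test was used for single genes.

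The enzymes and the other HIF pathway genes had medians on opposite sides of 0. The mean was higher in MTAC-P for 13 of 16 glycolytic enzymes and for 6 of 16 other HIF pathway genes, against 53.8% of all tested genes. The median log2 difference was 0.16 for the enzymes, 0.24 for the 4 regulators, -0.13 for the other HIF pathway genes and 0.031 for all tested genes. Arrays of the lines did not overlap, with MTAC-P higher, for 10 enzymes, 2 regulators and 2 other HIF pathway genes, against 28.3% of tested genes. They did not overlap, with MTAC-P lower, for 1 enzyme, 1 regulator and 7 other HIF pathway genes, against 24.9% of tested genes. The difference between the sets was not tested. In whole-culture RNA such as this, fewer cells with a transcript and less of it per cell cannot be told apart.

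**Figure D1:**
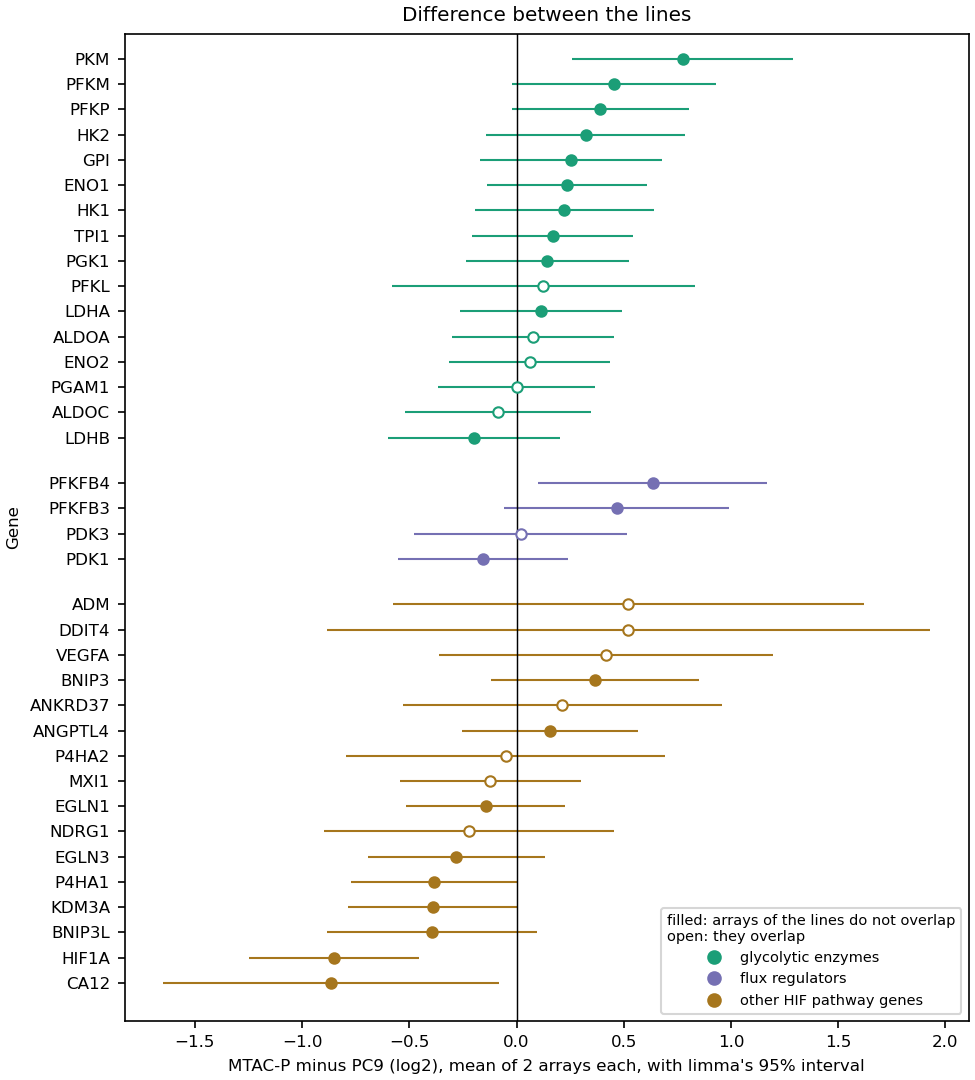
MTAC-P minus PC9 on the log2 scale for 36 members (points, means of 2 arrays per line) with limma's 95% intervals (bars), in 3 sets; filled points mark genes whose arrays do not overlap between the lines. Most enzymes lie to the right of 0, with PKM at 0.77, and HIF1A at -0.85 and CA12 at -0.87 lie farthest to the left.

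The sizes rested on few arrays. Without MTAC-P replicate 2 the median of the enzymes was 0.090, and without MTAC-P replicate 1 it was 0.24. MTAC-P replicate 2 was the highest of the 4 arrays for 11 of 16 enzymes (68.8%), against 34.1% of tested genes. For the other HIF pathway genes the median was -0.084 without MTAC-P replicate 1, and when the probe sets of each gene were averaged it was -0.025, with 8 of 16 higher. For 25 of the 36 members the difference between the lines was smaller than that between the duplicates of at least 1 line, as it was for 61.5% of tested genes.

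The first steps of glycolysis trap glucose in the cell and commit it to the pathway. HK1, the hexokinase of most tissues, read 12.16 and 12.28 in PC9 and 12.30 and 12.58 in MTAC-P, a difference of 0.22 (SE 0.17). HK2, the hexokinase often raised in tumours, read 8.33 and 8.10 against 8.35 and 8.72, a difference of 0.32 (SE 0.19). For both hexokinases the lines did not overlap, but the gap between the nearest arrays was narrow beside that between the duplicates. GPI, which converts glucose 6-phosphate to fructose 6-phosphate, read 11.17 and 10.88 in PC9 and 11.21 and 11.35 in MTAC-P, a difference of 0.25 (SE 0.18).

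Phosphofructokinase, the main control point of the pathway, is built from subunits of 3 types. PFKP, the platelet-type subunit, read 10.81 and 11.05 in PC9 and 11.23 and 11.40 in MTAC-P, a difference of 0.39 (95% interval -0.023 to 0.80). PFKM, the muscle-type subunit, read 9.95 and 9.84 against 10.12 and 10.57, a difference of 0.45 (95% interval -0.022 to 0.93). Both subunits were clear of overlap, and limma's adjusted p was 0.285 for PFKP and 0.282 for PFKM. PFKL, the liver-type subunit, read 6.13 and 6.11 in PC9, while its MTAC-P duplicates lay on either side at 5.79 and 6.69, so its difference of 0.12 (SE 0.29) turned to -0.33 without MTAC-P replicate 2.

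The middle steps cleave fructose bisphosphate and lead to pyruvate. ALDOA, the main aldolase of proliferating cells, averaged 13.50 in PC9 and 13.57 in MTAC-P with overlapping arrays. ALDOC, the brain-type aldolase, differed by -0.087 on its brightest probe set, whereas its other 4 probe sets were higher in MTAC-P, at up to 0.27. TPI1, which interconverts the triose phosphates, read 13.27 and 13.25 against 13.36 and 13.51, a difference of 0.17 (SE 0.16). PGK1, the first ATP-forming enzyme of the pathway, read 13.23 and 13.20 in PC9 and 13.28 and 13.45 in MTAC-P, a difference of 0.14 (SE 0.16). All 9 probe sets of PGK1 were higher in MTAC-P, by 0.14 to 0.31, and 7 of them did not overlap between the lines.

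PGAM1, phosphoglycerate mutase, had a mean of 13.18 in both lines and is counted as lower only by a difference of -0.00040, with a 95% interval of the difference from -0.37 to 0.36. ENO1, the widely expressed enolase, read 13.10 and 13.00 in PC9 and 13.34 and 13.23 in MTAC-P, a difference of 0.23 (SE 0.15), and both of its probe sets were clear of overlap. ENO2, the neuronal enolase, averaged 6.02 and 6.08 with overlapping arrays.

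PKM, which makes pyruvate and whose spliced M2 form is the usual one in tumours, had the largest difference of the enzymes. It read 8.86 and 8.43 in PC9 and 9.24 and 9.59 in MTAC-P. The MTAC-P arrays were the 2 highest, and the means were 1.71-fold apart (log2 difference 0.77, SE 0.21, limma adjusted p = 0.150). The 3 probe sets of PKM above the dim value differed by 0.60, 0.77 and 0.92, each without overlap. Leaving out 1 array kept the difference between 0.56 and 0.99. The M1 and M2 forms were not told apart here. The brightest probe set of PKM averaged 9.03 over the arrays, against 13.17 for that of ENO1 and 13.29 for that of PGK1. Among the members, 3 probe sets were left out because their annotation names several genes. How much of the PKM transcript the probe sets read was not tested.

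LDHA and LDHB encode the subunits of lactate dehydrogenase, the A subunit being the HIF target. LDHA read 14.02 and 13.87 in PC9 and 14.08 and 14.03 in MTAC-P, a difference of 0.11 (SE 0.16), and its 4 probe sets were all higher in MTAC-P without overlap. The gaps between the nearest arrays were narrow beside those between the PC9 duplicates. On 1 probe set PC9 read 13.8222 and 13.7100, and MTAC-P 13.8234 and 13.8357. LDHB, by contrast, was the only enzyme whose arrays were all lower in MTAC-P, at 13.44 and 13.38 against 13.33 and 13.08, a difference of -0.20 (SE 0.17). The LDHA and LDHB values thus lay on opposite sides of 0, with intervals of -0.26 to 0.49 and -0.60 to 0.20 that overlap.

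**Figure D2:**
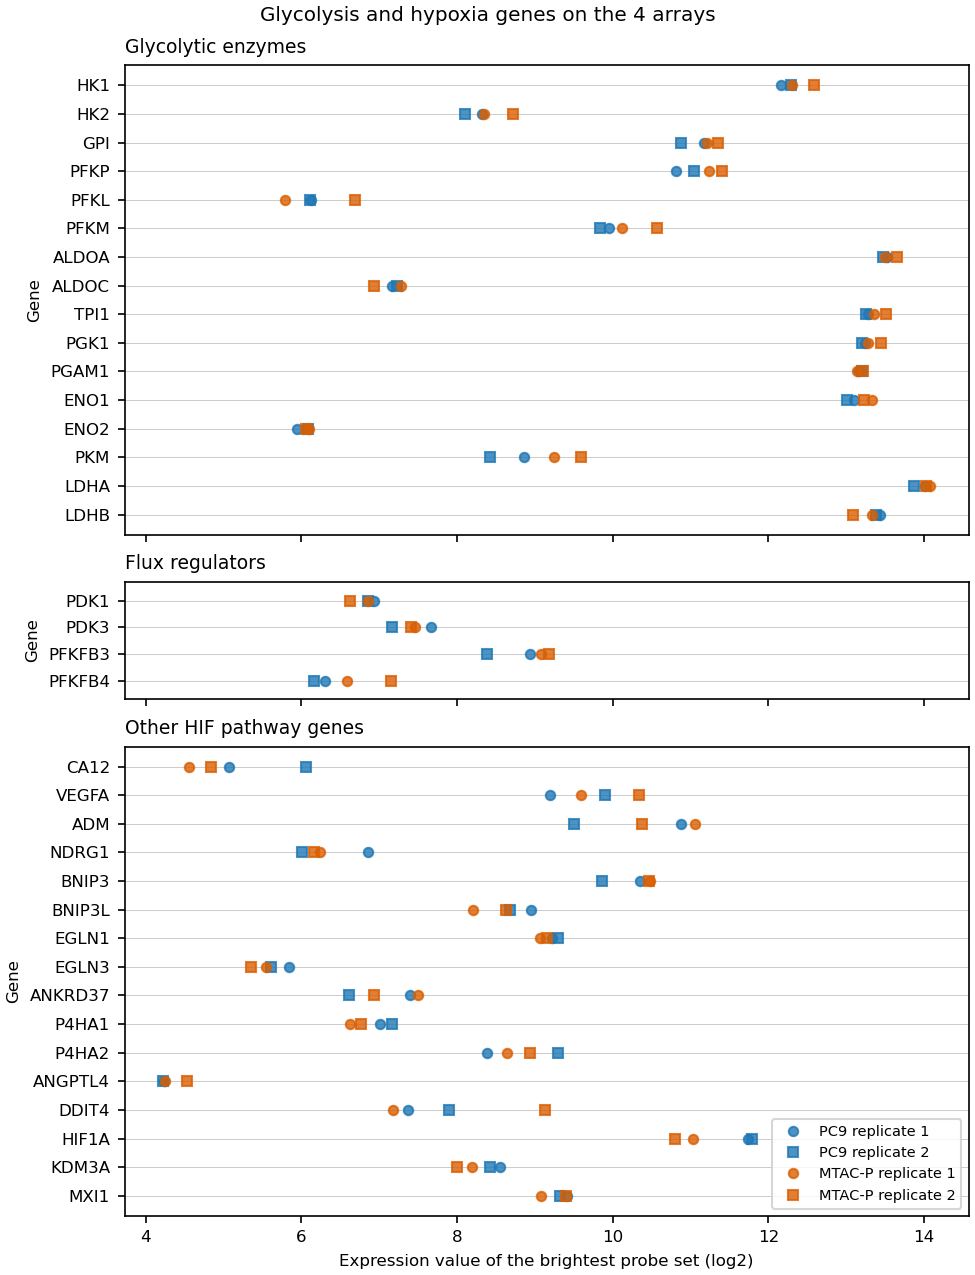
Expression value (log2) of the brightest probe set of each of 36 members on the 4 arrays, PC9 in blue and MTAC-P in orange, with circles for replicate 1 and squares for replicate 2. HIF1A has both PC9 points near 11.7 to 11.8 and both MTAC-P points at 10.80 and 11.03, while the duplicates of DDIT4 in MTAC-P lie at 7.18 and 9.13.

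Counted over probe sets, 43 of the 46 glycolytic probe sets above the dim value were higher in MTAC-P, against 53.7% of all named probe sets above it, and 33 of them were higher without overlap, against 27.7% of all named probe sets above it. Probe sets of 1 gene read the same transcripts and are not independent. Of the 11 enzymes with several such probe sets, 9 had all of them on the same side of 0, the exceptions being ALDOC and PGAM1. The brightest probe set of 7 of the 16 enzymes has a name ending in x_at and that of 4 in s_at, which by the maker's convention marks probes that can also match other transcripts, so signal from close copies such as pseudogenes is not separated for them.

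The 4 regulators set how fast carbon moves into and past the pathway. PFKFB3 and PFKFB4 encode kinases that make fructose 2,6-bisphosphate, the activator of phosphofructokinase. PFKFB4 read 6.31 and 6.16 in PC9 and 6.58 and 7.15 in MTAC-P, a 1.55-fold difference (log2 0.63, SE 0.22, limma adjusted p = 0.213). Both MTAC-P arrays were higher, though the other 3 probe sets of PFKFB4, all under 4.5, differed by -0.18 to 0.11. PFKFB3 read 8.94 and 8.39 against 9.07 and 9.19, a difference of 0.47 (SE 0.22), and this was 0.19 without PC9 replicate 2. The other 3 probe sets of PFKFB3 differed by 0.033 to 0.10, with overlapping arrays.

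PDK1 and PDK3 encode kinases that switch off pyruvate dehydrogenase and so limit the oxidation of pyruvate in mitochondria. PDK1, a HIF target, read 6.93 and 6.85 in PC9 and 6.85 and 6.62 in MTAC-P, a difference of -0.16 (SE 0.16), with its other probe set at 0.49. On the brightest probe set of PDK1 the nearest arrays were PC9 replicate 2 at 6.8544 and MTAC-P replicate 1 at 6.8522. PDK3 differed by 0.019 (SE 0.21) with overlapping arrays. The mean was higher in MTAC-P for 3 of the 4 regulators, and for all 4 when the probe sets of each gene were averaged, with PDK1 then at 0.17. Their median of 0.24 became -0.0013 without PC9 replicate 2 and 0.49 without PC9 replicate 1.

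HIF1A, the oxygen-regulated subunit of HIF-1, read 11.74 and 11.79 in PC9 and 11.03 and 10.80 in MTAC-P. The lines were well apart, with the duplicates 0.047 apart in PC9 and 0.23 apart in MTAC-P. The means were 1.80-fold apart (log2 difference -0.85, 95% interval -1.25 to -0.46, limma adjusted p = 0.111), the lowest adjusted p of the 36 members. All 8 probe sets of HIF1A were lower in MTAC-P, by -0.90 to -0.53, and 7 of them did not overlap. Leaving out 1 array kept the difference between -0.97 and -0.73. With a trend of the variance on the level HIF1A passed, at a limma adjusted p of 0.0379, in a fit where 77 of 14970 tested genes passed. Over all alternatives its adjusted p ranged from limma's 0.00195 to 0.424, the latter from the unmoderated fit, an ordinary t-test. The lowest was with a replicate block, where 2079 tested genes passed, and the replicate numbers are not stated to pair cultures.

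**Figure D3:**
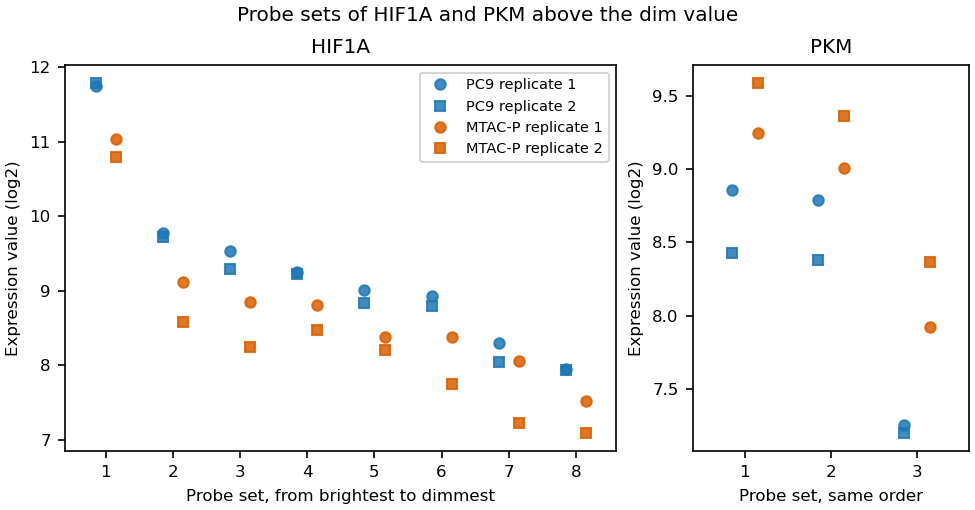
Expression values (log2) of the 8 probe sets of HIF1A and the 3 probe sets of PKM above the dim value, ordered from brightest to dimmest, on each array. MTAC-P points lie below PC9 points at 7 of 8 HIF1A probe sets, the exception being the second dimmest, and above them at all 3 PKM probe sets.

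EGLN1 and EGLN3 encode prolyl hydroxylases of the EGLN family, which sense oxygen, and EGLN3 is itself a HIF target. EGLN1 read 9.22 and 9.30 in PC9 and 9.07 and 9.16 in MTAC-P, a difference of -0.14 (SE 0.15), while its other probe sets differed by 0.20 and 0.39. EGLN3 read 5.84 and 5.62 against 5.54 and 5.35, a difference of -0.28 (SE 0.17). All 3 probe sets of EGLN3 were lower in MTAC-P without overlap.

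Of the chromatin and transcription factor targets, KDM3A, a histone H3 lysine demethylase, read 8.55 and 8.42 in PC9 and 8.20 and 8.0 in MTAC-P, a difference of -0.39 (95% interval -0.79 to 0.0047). All 3 of its probe sets were lower in MTAC-P without overlap, by -0.92 to -0.29. MXI1, a MYC antagonist, differed by -0.12 (SE 0.18) with overlapping arrays.

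P4HA1 and P4HA2 encode the catalytic subunits of collagen prolyl hydroxylase. P4HA1 read 7.01 and 7.16 in PC9 and 6.63 and 6.77 in MTAC-P, a difference of -0.39 (95% interval -0.77 to 0.0015), and it kept this to between -0.46 and -0.31 when 1 array was left out. P4HA2 read 8.38 and 9.30 against 8.64 and 8.94. The MTAC-P arrays of P4HA2 lay between those of PC9, and the difference was -0.051 (SE 0.31).

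BNIP3 and BNIP3L are related HIF targets that act in mitophagy and cell death, and their values lay on opposite sides. BNIP3 read 10.34 and 9.87 in PC9 and 10.48 and 10.46 in MTAC-P, a difference of 0.37 (SE 0.20). BNIP3L read 8.94 and 8.68 in PC9 and 8.21 and 8.63 in MTAC-P, a difference of -0.39 (SE 0.20). All 6 probe sets of BNIP3L were lower in MTAC-P, whereas the other probe set of BNIP3 differed by -0.21.

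CA12, a carbonic anhydrase of the cell surface that helps to set pH, had the largest difference of all members. It read 5.07 and 6.06 in PC9 and 4.56 and 4.84 in MTAC-P, so the PC9 duplicates differed by more than the lines did. The difference was -0.87 (SE 0.32, limma adjusted p = 0.232), and it was -0.37 without PC9 replicate 2. Its other 3 probe sets above the dim value of 4.14 differed by -0.76, -0.073 and -0.0050.

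VEGFA and ADM encode secreted products of the hypoxia response, and on their brightest probe sets the duplicates of each line differed by more than the lines did. VEGFA, the main growth factor of blood vessels, read 9.19 and 9.90 in PC9 and 9.59 and 10.33 in MTAC-P, a difference of 0.42 (SE 0.32). ADM, the vasodilator peptide adrenomedullin, read 10.88 and 9.50 against 11.06 and 10.37, a difference of 0.52 (SE 0.46) that was -0.17 without PC9 replicate 2. In both lines VEGFA was higher on the array labelled 2 and ADM on the array labelled 1. All 10 probe sets of VEGFA, from 0.26 to 0.61, and all 3 of ADM, from 0.40 to 0.52, had higher means in MTAC-P, and 5 of those of VEGFA did not overlap between the lines. ANGPTL4, a lipoprotein lipase inhibitor, read 4.24 and 4.23 in PC9 and 4.25 and 4.53 in MTAC-P, close to the dim value.

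The remaining targets overlapped between the lines. DDIT4, a stress-induced inhibitor of mTORC1, read 7.37 and 7.90 in PC9 and 7.18 and 9.13 in MTAC-P, and its difference of 0.52 (SE 0.58) was -0.45 without MTAC-P replicate 2. ANKRD37, an ankyrin repeat protein gene induced by hypoxia, read 7.39 and 6.61 against 7.50 and 6.93, with replicate 1 higher in both lines. NDRG1, a hypoxia and differentiation marker, read 6.85 and 6.01 in PC9 and 6.25 and 6.17 in MTAC-P, a difference of -0.22 (SE 0.28). For DDIT4, ANKRD37 and NDRG1 the sign of the difference depended on which arrays were used.

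**Figure D4:**
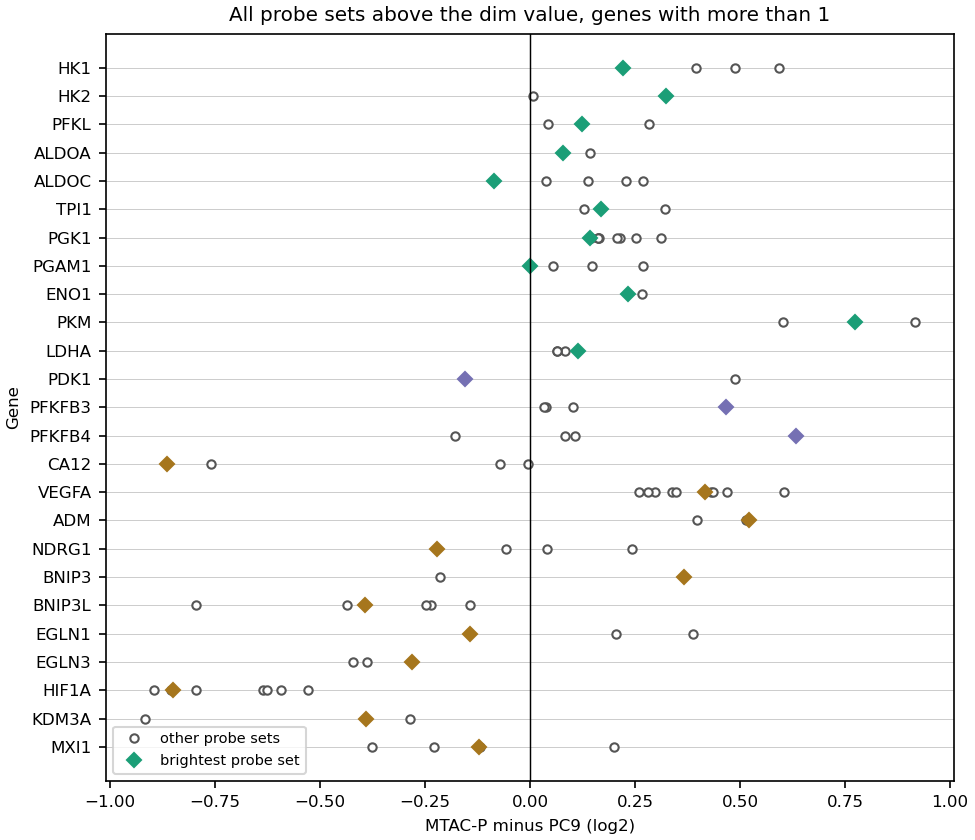
MTAC-P minus PC9 (log2) for every probe set above the dim value of members with more than 1, with the brightest as a diamond (green for enzymes, violet for regulators, brown for other HIF pathway genes) and the others as open circles. Probe sets of HIF1A, KDM3A, EGLN3 and BNIP3L all lie left of 0 and those of VEGFA, PGK1, HK1 and PKM all right of it, while those of PDK1, EGLN1, NDRG1 and BNIP3 lie on both sides.

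Further genes of the pathway came from lists drawn up beside the members, and 0 of the 54 tested passed limma's adjusted threshold, with 13 (24.1%) at an unadjusted p under 0.05, against 18.9% of all tested genes. Of the 10 genes of the HIF machinery, 5 were higher and 5 lower. ARNT, the constant partner of the alpha subunits, read 6.74 and 6.85 in PC9 and 7.51 and 7.64 in MTAC-P, a difference of 0.78 (SE 0.16, limma adjusted p = 0.112). All 5 probe sets of ARNT were higher in MTAC-P, by 0.14 to 0.78. ARNT2, a related subunit, differed by 0.90 (SE 0.48) with overlapping arrays.

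EPAS1, which encodes the alpha subunit of HIF-2 and is named here with its values already known, read 10.73 and 10.62 in PC9 and 10.10 and 10.19 in MTAC-P, a difference of -0.53 (SE 0.15, limma adjusted p = 0.160). Its other probe set differed by 0.20. The brightest probe sets of HIF1A and EPAS1 lay lower in MTAC-P and that of ARNT higher, each without overlap between the lines. Of the 10 genes of the HIF machinery, arrays did not overlap for 2 with MTAC-P higher and for 3 with it lower. Over all tested genes the shares were 28.3% and 24.9%.

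The 21 tested further HIF targets had a median of 0.14, and 13 of them were higher in MTAC-P. JMJD6, a dioxygenase, differed by 0.66 (SE 0.21) and FAM13A by -0.56 (SE 0.17), and in each gene another probe set had the opposite sign. The median of the other HIF pathway genes among the members was -0.13, and the 2 lists were not tested against each other.

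The 12 tested other glycolysis genes were split evenly, 6 on each side of 0, and their median was 0.0097. PGM1, which links glycogen to glycolysis, read 10.15 and 10.21 in PC9 and 10.59 and 10.78 in MTAC-P, a difference of 0.51 (SE 0.16). PFKFB2, a further kinase for fructose 2,6-bisphosphate, differed by -0.42 (SE 0.21). The 4 probe sets of PFKFB2 above the dim value ran from -0.42 to 0.39, with 2 of them lower in MTAC-P. GAPDH, the glyceraldehyde phosphate dehydrogenase, likewise named with its values known, differed by 0.033 (SE 0.15). The glucose transporter gene SLC2A1 differed by 0.097 (SE 0.15) and BSG, the chaperone of the lactate transporters, by 0.38 (SE 0.16), each with MTAC-P higher on both arrays. The list for glucose and lactate transport held 5 genes, and SLC2A3, SLC16A1 and SLC16A3 had no probe set naming the gene alone.

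The 9 tested genes of the mitochondrial pyruvate carrier, the pyruvate dehydrogenase complex and its regulators had a median of -0.12. Of these genes, 3 were higher in MTAC-P. PDP1, the phosphatase that switches pyruvate dehydrogenase on and so opposes the PDK kinases, differed by -0.78 (SE 0.20, limma adjusted p = 0.137), with another probe set at 0.22. DLD, a shared subunit of pyruvate dehydrogenase, read 11.95 and 11.72 in PC9 and 11.49 and 10.96 in MTAC-P, a difference of -0.61 (SE 0.22), and all 7 of its probe sets were lower in MTAC-P without overlap.

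Array medians over all probe sets ran from 4.85 to 4.88. All 7 epithelial markers were at 10.3 or above in both lines, while 7 of 8 lung lineage markers, NKX2-1 and SFTPB among them, had means under 5.2, and fibroblast, blood and endothelial markers had means of at most 5.49. Control probe sets at the 3′ end of ACTB exceeded those at the 5′ end by 1.51 to 1.75 on 3 arrays and by 2.49 on PC9 replicate 2, and for GAPDH the same measure lay between -0.090 and 0.038. Whether such array differences have a part in the values of the members was not tested.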

How the data were processed

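RNA from both lines was hybridised to 4 one-colour arrays. The authors deposited log2 expression values, 1 per probe set and array. That scale is read from their range, and background correction and normalization are not given in the sources used here. The labels name an Agilent labelling kit and the submitters' processing notes Agilent Feature Extraction 10.7, while the probe-set names are of Affymetrix type; how these relate is not settled.

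Of 49386 probe sets, 45253 had 1 symbol in GEO's platform annotation, 1327 had several, 93 were controls and 2713 have no name here. RefSeq's gene table gave current symbols. Leaving out genes with a mean below the 25th percentile of probe sets kept 14970 of 18239. The lines were compared by limma 3.58.1 in R 4.3.3 (lmFit, eBayes, 2-sided, Benjamini-Hochberg adjustment over all tested genes), which also gave SE and 95% intervals. The fit was also tested on simulated data, where recovery was required only of changes larger than that of any member. The number of arrays limits the precision.

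The members and lists were chosen with earlier results of these data known. Every member is named, and of each further list the 2 genes with the largest difference, with EPAS1 and GAPDH added after their values were seen. The further lists held 64 genes, of which 57 had a probe set naming the gene alone and 54 were tested. In the transport list only 2 of 5 genes had one, so both are named. Alternatives were a replicate block, median centring, quantile normalization, no filter or a 50th percentile filter, the average of a gene's probe sets, a variance trend, an unmoderated fit, a pseudocount of 16 on the linear scale and leaving out each array.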

Additional observations from a re-analysis of the deposited data

How the results depend on the processing

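Of the 36 members, 23 kept the sign of their difference under those of the 13 alternatives in which they were tested. ANGPTL4 was not tested under the 50th percentile filter. The replicate block, the variance trend, the unmoderated fit and the changes of filter leave each difference as it was. A sign could therefore turn only under the other alternatives. With limma 0 members passed in the fit as reported and 4 had an unadjusted p under 0.05. With a variance trend 1 of the 36 passed (HIF1A), against 77 of all 14970 tested genes. With the replicate block 4 of the 36 passed (HIF1A, PKM, PFKFB4 and CA12), against 2079 of all 14970. The replicate numbers are not stated to pair cultures. The differences between replicates 1 and 2 correlated at 0.28 between the lines, across genes, which are not independent replicates. The count over all tested genes, 3 as reported, was 2079 with the replicate block, 77 with the variance trend, 1 with the 50th percentile filter, 1 with the pseudocount, and 0 with the mean of all probe sets and in the unmoderated fit; leaving out 1 array gave 0 to 68.

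Leaving out 1 array moved the median of the enzymes between 0.090 and 0.24, that of the regulators between -0.0013 and 0.49 and that of the other HIF pathway genes between -0.20 and -0.084, and the last became -0.025 when probe sets were averaged. With the mean of all probe sets ALDOC turned to 0.12, PGAM1 to 0.12, PDK1 to 0.17, NDRG1 to 0.0020 and EGLN1 to 0.15. Leaving out 1 array turned the sign of 11 members: PFKL ran from -0.33 to 0.57, ALDOC from -0.26 to 0.087, PGAM1 from -0.036 to 0.035, ENO2 from -0.012 to 0.13, PDK3 from -0.23 to 0.27, ADM from -0.17 to 1.21, NDRG1 from -0.64 to 0.20, ANKRD37 from -0.18 to 0.60, P4HA2 from -0.51 to 0.41, DDIT4 from -0.45 to 1.49 and MXI1 from -0.28 to 0.032. Median centring and quantile normalization turned no member's sign. The cause of these changes was not tested.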
